A study of Mus musculus with 12 samples.

Results

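Kit signalling and the regulators of spermatogonial differentiation were followed through 7 mouse genes: the ligand Kitl, the receptor Kit, and the germ cell regulators Dmrt1, Sohlh1, Sohlh2, Stra8 and Dmrtb1. They were chosen by symbol and taken from the expression table by their NCBI Gene IDs (Kitl 17311, Kit 16590, Dmrt1 50796, Sohlh1 227631, Sohlh2 74434, Stra8 20899, Dmrtb1 56296). They are 7 of 22221 rows. Of these rows, 15472 reached 1 FPKM (fragments per kilobase of transcript, scaled to the mapped fragments of the library) in at least 3 libraries and were tested, and all 7 genes were among them.

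The study sequenced RNA from whole testes of ICR mice, an outbred stock, in 12 libraries that form 4 groups of 3. Con mice received no treatment, and their age is not given in the labels. Sa, IMC and IMA10 mice all had a busulfan dose (1 per mouse) at 3 weeks of age; busulfan is an alkylating agent toxic to spermatogonia. Saline followed in Sa. IMC mice were given gut microbiota from donors that had received water (ddH2O), and IMA10 mice were given gut microbiota from donors that had received alginate oligosaccharide ("Aligina Oligosaccharide" in the labels) at 10 mg/kg body weight. Microbiota were given for 2 weeks and testes were taken another 3 weeks later. The series' design text speaks of cultured testis, although no culture step is described. Whether each library is a separate animal is not stated, so p-values measure the spread between libraries, which may be technical. Column names of the Con libraries begin differently from those of the busulfan libraries, and a batch behind that difference cannot be told apart from the lack of treatment.

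In the testis, Sertoli cells present the Kit ligand to germ cells, and the receptor tyrosine kinase KIT appears as undifferentiated spermatogonia become differentiating ones and is needed for their survival and division. Retinoic acid drives this step and induces STRA8, which later also serves entry into meiosis, while SOHLH1 and SOHLH2 are basic helix-loop-helix factors of spermatogonia that bind E-boxes and are needed for Kit expression. DMRT1 holds spermatogonia in the mitotic programme and DMRTB1 (also called DMRT6) acts in late spermatogonia at the change from mitosis to meiosis. Of the 7 genes, 3 are also expressed by somatic cells: KIT is present in Leydig cells and mast cells, DMRT1 in Sertoli cells, and KITL is mainly a Sertoli cell product with further sources such as endothelium. Spermatids also make a truncated Kit transcript from an internal promoter, which a value per gene does not separate from the full-length one.

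The promoters of 3 genes whose levels ran together, Sohlh1, Sohlh2 and Stra8, are shown because 2 of them encode E-box factors and the third is a retinoic acid target. RefSeq (GRCm38.p6) had a promoter window for 6 of the 7 genes, of 250 bases before to 50 bases after the start. Both strands were searched for the E-box CANNTG and for AGGTCA, the hexamer that retinoic acid receptors recognise. The 250 bases before each start are written 5′ to 3′ on the gene's strand, with E-boxes and AGGTCA in capitals. They lie at chr2:25847249-25847498 (minus strand) for Sohlh1, chr3:55181794-55182043 (plus strand) for Sohlh2 and chr6:34920698-34920947 (plus strand) for Stra8.
Sohlh1: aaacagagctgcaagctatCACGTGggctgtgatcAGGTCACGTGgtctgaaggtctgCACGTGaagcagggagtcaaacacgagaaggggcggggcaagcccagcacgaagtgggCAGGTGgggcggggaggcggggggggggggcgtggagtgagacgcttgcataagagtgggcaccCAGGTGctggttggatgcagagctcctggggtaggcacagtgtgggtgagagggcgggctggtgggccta
Sohlh2: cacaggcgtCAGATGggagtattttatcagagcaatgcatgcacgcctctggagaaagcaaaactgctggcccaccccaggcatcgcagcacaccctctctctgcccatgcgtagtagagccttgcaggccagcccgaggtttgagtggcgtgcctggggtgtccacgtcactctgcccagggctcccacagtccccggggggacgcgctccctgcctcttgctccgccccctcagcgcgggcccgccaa
Stra8: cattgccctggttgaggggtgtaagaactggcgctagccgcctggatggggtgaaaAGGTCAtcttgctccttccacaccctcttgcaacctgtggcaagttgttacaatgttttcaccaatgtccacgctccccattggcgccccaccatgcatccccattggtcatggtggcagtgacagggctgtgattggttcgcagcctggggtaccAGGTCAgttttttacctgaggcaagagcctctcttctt

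Sohlh1 held 5 E-boxes. The sequence CACGTG began at positions -231, -211 and -192 from the start, and CAGGTG at -134 and -70. The 1 AGGTCA, at -215, overlapped the E-box at -211. At least 5 E-boxes were found in 2.1% of the 32851 windows of the same length. Sohlh2 held 1 E-box, CAGATG at -241, and Stra8 held none in its window, while 72.3% of all windows held at least 1 and the median was 1. Stra8 held AGGTCA at -194 and at -38. At least 2 copies were found in 1.81% of the windows, and at least 1 in 16.3%. In Kit the E-box CACTTG lay 9 bases after the first of its RefSeq starts, and in Kitl CATTTG lay 11 bases after the start. Each of the 2 Dmrtb1 windows held 3 E-boxes. These matches describe letters in a window and do not show binding.

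The libraries carried the markers of a testis: 20 of 20 Sertoli cell genes, 12 of 12 Leydig cell genes, 14 of 14 pachytene spermatocyte genes and 12 of 12 elongating spermatid genes had a value above 0 in all 12 libraries, as had 13 of 17 genes of undifferentiated spermatogonia and 12 of 14 of round spermatids. Of the spermatogonial genes, Nanos2, Pax7, Eomes and T were under 1 FPKM in every library. Germ cell content differed widely. The summed FPKM of the 12 elongating spermatid genes was 44646 to 47156 in Con, 273 to 2378 in Sa and 161 to 356 in IMC. In IMA10 it was 43.0 and 93.5 in replicates 1 and 2 and 4145 in replicate 3. The library labelled IMA10 replicate 3 stood apart from its group: across genes its log2 values correlated at 0.918 to 0.926 with the Con libraries and at 0.606 and 0.705 with the other IMA10 libraries. Whether its label is right was not tested. The main results that rest on it are given with and without it. The library was singled out by values from these same data, and p-values without it do not account for that choice. In whole testes, fewer cells of a type and less RNA per cell cannot be told apart, and FPKM values are shares of a library, so the value of 1 gene depends on the levels of all others.

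Kitl, Kit and Dmrt1 were higher in all 3 busulfan groups than in Con, Sohlh1, Sohlh2 and Stra8 were higher in Sa, and Dmrtb1 was 4 to 5 times lower in Sa and IMC than in Con without passing the test. In the limma test on log2(FPKM + 1) with Benjamini-Hochberg adjustment over all 15472 genes, 6 of 7 rose and 0 fell in Sa against Con, where 52% of all genes rose and 19.2% fell. In IMC against Con 4 rose and 0 fell, against 50.8% and 23.3% of all genes. In IMA10 against Con 3 rose and 1 fell, against 47.7% and 23.9% of all genes. All 3 comparisons share the Con libraries.

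**Figure D1:**
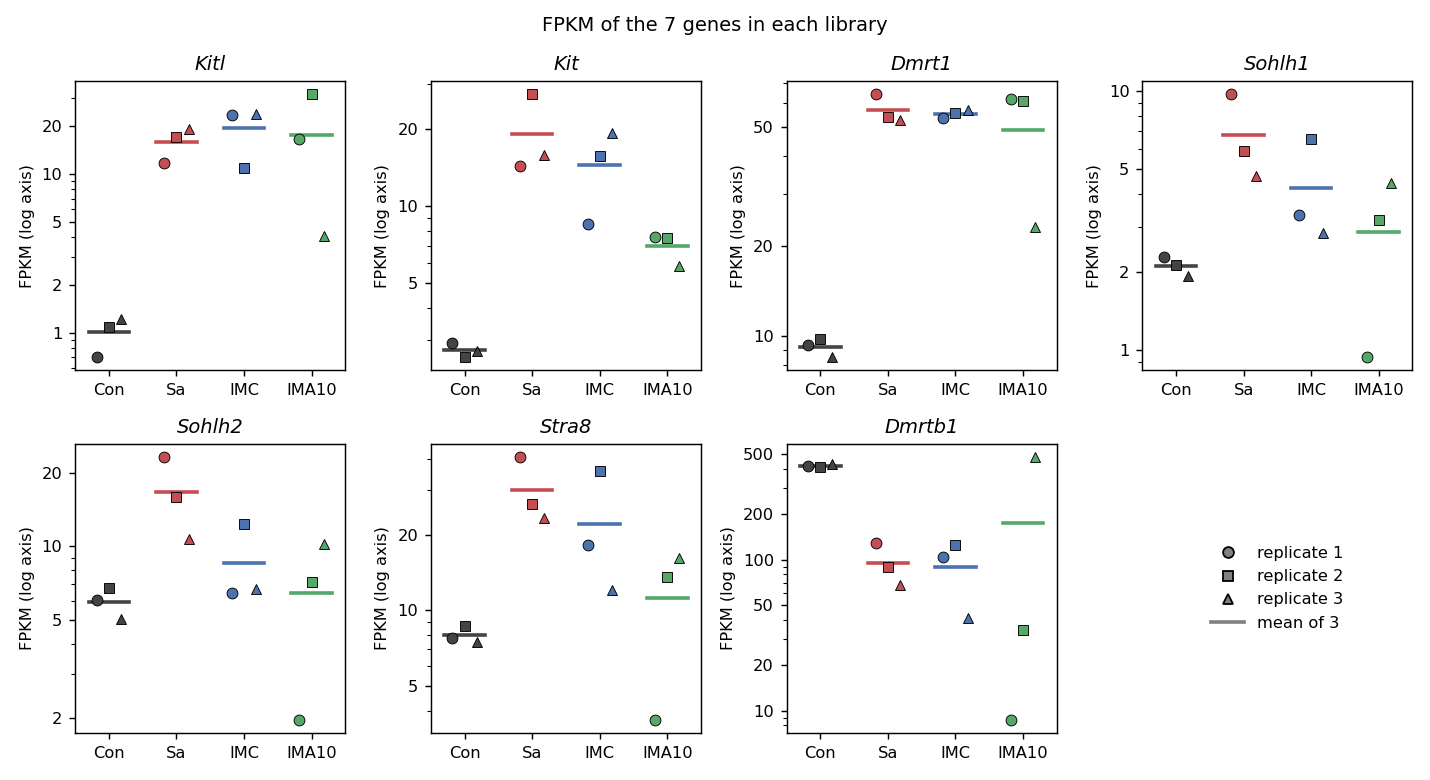
FPKM of the 7 genes in each library on log axes that differ between panels; symbols are the 3 replicates of each group and bars are group means. Kitl, Kit and Dmrt1 lie above Con in every busulfan library, and Dmrtb1 lies below Con in 8 of the 9 busulfan libraries, the exception being IMA10 replicate 3 at 479 FPKM.

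Kitl, the ligand, had the lowest mean of the 7 genes in Con and rose most in fold terms. Its FPKM was 0.70, 1.09 and 1.22 in Con, 11.75, 17.09 and 19.28 in Sa, and 23.58, 10.93 and 24.02 in IMC. In IMA10 it was 16.69, 31.91 and 4.04. Every busulfan library lay above every Con library, and the lowest was IMA10 replicate 3. The means were 1.00 ± 0.271 (SD, n = 3) in Con, 16.0 ± 3.87 in Sa, 19.5 ± 7.43 in IMC and 17.5 ± 13.95 in IMA10. They correspond to 16.0, 19.4 and 17.5 times the Con mean. The rise was 3.07 ± 0.58 (log2, SE) in Sa (limma, adjusted p = 0.000985), 3.29 ± 0.58 in IMC (adjusted p = 0.000646) and 2.85 ± 0.58 in IMA10 (adjusted p = 0.00198). Without IMA10 replicate 3 the IMA10 rise was 3.60 ± 0.367 (limma, adjusted p = 6.7e-06).

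Sertoli cell genes moved beside Kitl. All 20 rose against Con in each of the 3 busulfan groups (limma), beside 52%, 50.8% and 47.7% of all genes. Their median log2 differences were 3.25 in Sa, 3.56 in IMC and 3.19 in IMA10 (3.92 without replicate 3), against 0.60, 0.52 and 0.41 for all genes. Their summed FPKM was 735 to 862 in Con, 10448 to 12275 in Sa, 13053 to 15312 in IMC, and 19984, 16185 and 3523 in the 3 IMA10 libraries. Relative to the mean log2 level of these genes in the same library, Kitl stood at -2.54 ± 0.296 (SD, n = 3) in Con, -2.72 ± 0.254 in Sa, -2.76 ± 0.543 in IMC and -2.86 ± 0.554 in IMA10. Libraries of the 4 groups overlapped on this ratio (exact permutation p = 0.5 for each busulfan group against Con, two-sided). Its small differences from Con were below 0 at a pseudocount of 1 and above 0 at 0.1 (0.31, 0.28 and 0.14 in Sa, IMC and IMA10), with overlap in both. Endothelial genes, another source of the ligand, had summed FPKM of 28.5 to 37.6 in Con and 51.2 to 240.0 in the busulfan libraries. The part of either cell type in the rise of Kitl was not tested.

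Kit, the receptor, also rose in every busulfan group, with its lowest mean among them in IMA10. Its FPKM was 2.92, 2.58 and 2.72 in Con, 14.29, 27.32 and 15.78 in Sa, and 8.54, 15.72 and 19.28 in IMC. The IMA10 values were 7.61, 7.48 and 5.84. The IMA10 libraries lay between the other groups: all 3 were above Con, below every Sa library and below every IMC library, and replicate 3 was near its group here. The differences of IMA10 from Sa and from IMC did not pass limma with all 12 libraries (adjusted p = 0.628 and 1.00). Group means were 2.74 ± 0.171 (SD, n = 3) in Con, 19.1 ± 7.13 in Sa, 14.5 ± 5.47 in IMC and 6.98 ± 0.987 in IMA10, the last 3 being 6.98, 5.30 and 2.55 times Con. The log2 rise was 2.37 ± 0.305 in Sa (limma, adjusted p = 0.000351), 1.98 ± 0.305 in IMC (adjusted p = 0.000354) and 1.09 ± 0.305 in IMA10 (adjusted p = 0.00992). Without replicate 3 the IMA10 rise was 1.19 ± 0.321 (limma, adjusted p = 0.0055). The IMA10 call was lost when libraries were rescaled by median of ratios (0.65, adjusted p = 0.0665) or by quantiles (0.70, adjusted p = 0.097).

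Leydig cell genes, markers of a somatic cell that expresses Kit, rose as well: 12 of 12 in each busulfan group against Con (limma), beside 52%, 50.8% and 47.7% of all genes. Their median log2 differences were 3.33 in Sa, 3.20 in IMC and 2.44 in IMA10 (3.14 without replicate 3), against 0.60, 0.52 and 0.41 for all genes. Their summed FPKM was 669 to 727 in Con. In Sa it was 4832, 9935 and 8468, in IMC 4721, 7095 and 14844, and in IMA10 7597, 7739 and 2070. Within Sa and within IMC the library with the lowest Leydig sum also had the lowest Kit, and the same held in IMA10. Between groups the order could differ. IMA10 replicates 1 and 2 had larger Leydig sums than Sa replicate 1 but lower Kit (7.61 and 7.48 against 14.29 FPKM). Relative to the mean log2 level of the Leydig genes, Kit stood at -2.48, -2.34 and -2.38 in Con. It stood at -2.96, -3.19 and -3.62 in Sa and at -3.58, -3.39 and -3.75 in IMC. In IMA10 it stood at -4.31, -4.36 and -2.87, the last being replicate 3. All busulfan libraries lay below all Con libraries, with the ratio to Leydig genes lower in each group (differences -0.86, -1.18 and -1.45, exact permutation p = 0.1 each, the smallest that 3 against 3 allows, Benjamini-Hochberg adjusted p = 0.2). The IMA10 difference was -1.94 without IMA10 replicate 3. A gene that followed the median of all genes would also lie below Con on this ratio, because the Leydig genes rose more than that median.

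Mast cells, the other somatic cell named above as expressing Kit, were followed through 10 genes, of which Hdc and Gata2 were tested. Hdc, the histidine decarboxylase gene, was 8.44 ± 0.325 FPKM (SD, n = 3) in Con, 59.0 ± 3.30 in Sa, 67.8 ± 4.91 in IMC and 68.4 ± 44.4 in IMA10. Gata2, a transcription factor gene, was 12.7 ± 0.967 in Con, 3.53 ± 0.504 in Sa, 2.89 ± 0.749 in IMC and 3.68 ± 2.98 in IMA10. Hdc rose and Gata2 fell in each busulfan group (limma, adjusted p at most 0.00235). The other 8 reached at most 0.46 FPKM outside IMA10 replicate 2 and 2.99 FPKM in it. The parts of Leydig cells and mast cells in the Kit values were not tested.

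Dmrt1, expressed by spermatogonia and by Sertoli cells, was the steadiest of the 7 across the busulfan libraries. Its FPKM was 9.36, 9.76 and 8.52 in Con, 64.45, 54.11 and 52.90 in Sa, and 53.48, 55.79 and 57.16 in IMC. It was 62.23, 61.21 and 23.16 in IMA10. Outside IMA10 replicate 3 the busulfan libraries thus spanned 52.9 to 64.5, far above Con, and replicate 3 lay in between. The Dmrt1 mean was 57.2 ± 6.35 FPKM (SD, n = 3) in Sa, 55.5 ± 1.86 in IMC and 48.9 ± 22.3 in IMA10, against 9.21 ± 0.633 in Con. The log2 rise was 2.51 ± 0.318 in Sa (limma, adjusted p = 0.00035), 2.47 ± 0.318 in IMC (adjusted p = 0.000308) and 2.16 ± 0.318 in IMA10 (adjusted p = 0.000916). Without IMA10 replicate 3 the SE fell to 0.093 for Sa and IMC, and the IMA10 rise was 2.62 ± 0.104.

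Relative to the mean log2 level of the Sertoli genes, Dmrt1 stood at -0.18 ± 0.097 (SD, n = 3) in Con, -0.93 ± 0.248 in Sa, -1.22 ± 0.08 in IMC and -1.18 ± 0.462 in IMA10. No busulfan library overlapped Con (differences -0.75, -1.04 and -1.001, exact permutation p = 0.1 each, Benjamini-Hochberg adjusted p = 0.2). The Sertoli genes rose more than the median of all genes, so a gene that followed that median would also lie below Con on this ratio. Genes of undifferentiated spermatogonia, another source, had summed FPKM of 53.7 to 57.7 in Con, 185 to 227 in Sa, 170 to 219 in IMC and 110 to 181 in IMA10. Of the 11 tested, limma called 7 higher and 1 lower in Sa, 7 and 2 in IMC, and 5 and 2 in IMA10 against Con. Over all genes the shares were 52% and 19.2%, 50.8% and 23.3%, and 47.7% and 23.9%. The list medians were 1.00, 0.70 and 0.32 (log2), against 0.60, 0.52 and 0.41 for all genes. The parts of germ cells and Sertoli cells in the Dmrt1 values were not tested.

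**Figure D2:**
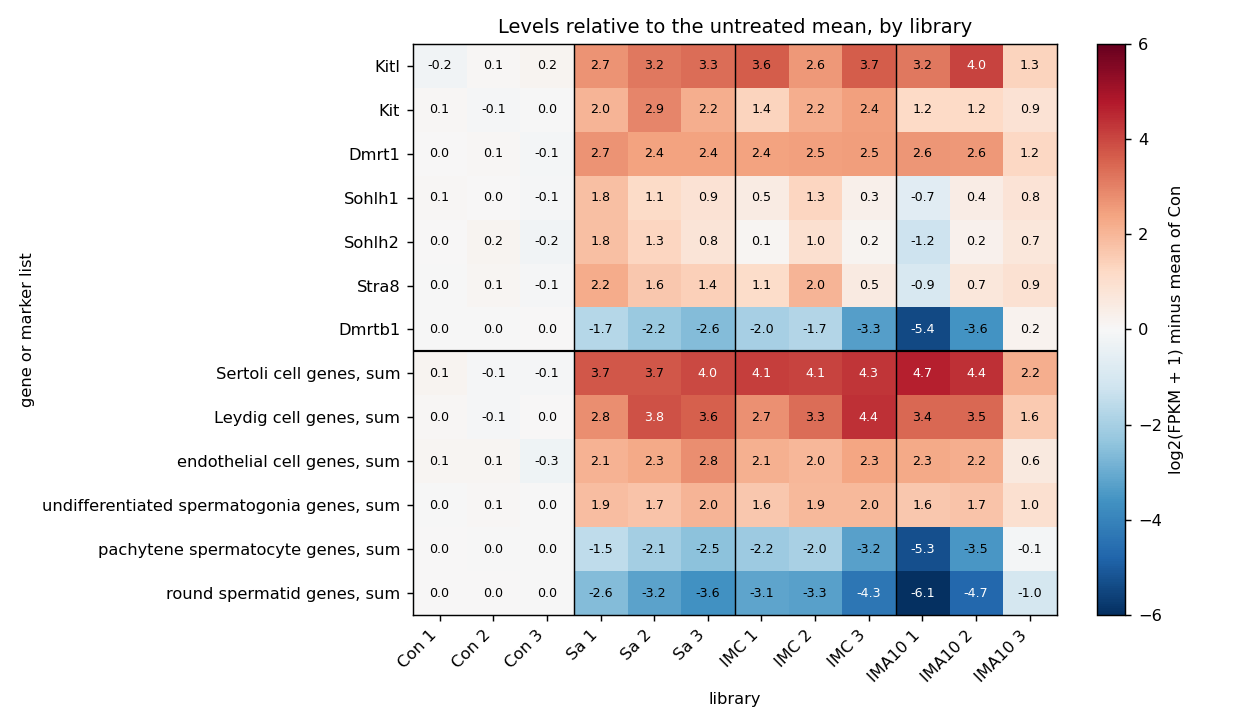
Difference of log2(FPKM + 1) from the Con mean for the 7 genes (above the line) and for the summed FPKM of 6 marker lists (below it), in each of the 12 libraries; red is above and blue below Con. IMA10 replicate 3 is paler than its group in the somatic lists, with a Sertoli sum of 3523 FPKM, and near Con in the pachytene list, with 5911 FPKM.

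Sohlh1 and Sohlh2, the spermatogonial factors upstream of Kit, moved together. The FPKM of Sohlh1 was 2.28, 2.13 and 1.94 in Con, 9.73, 5.86 and 4.72 in Sa, and 3.31, 6.52 and 2.83 in IMC. For IMA10 the values were 0.94, 3.19 and 4.41. All Sa and IMC libraries were above Con, while IMA10 ran from below Con (replicate 1) to above it (replicate 3). The log2 difference from Con was 1.27 ± 0.397 in Sa (limma, adjusted p = 0.0156). It was 0.68 ± 0.397 in IMC (adjusted p = 0.139) and 0.18 ± 0.397 in IMA10 (adjusted p = 0.69), neither called. With only the 2 groups compared the IMC difference was called (limma, adjusted p = 0.0361).

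The FPKM of Sohlh2 was 6.03, 6.76 and 5.04 in Con, 23.22, 15.93 and 10.70 in Sa, and 6.44, 12.41 and 6.72 in IMC. In IMA10 it was 1.96, 7.14 and 10.24. Sa lay above Con in every library, while IMC and IMA10 overlapped Con. Only the Sa difference passed the test: 1.29 ± 0.468 (limma, adjusted p = 0.030), against 0.41 ± 0.468 in IMC (adjusted p = 0.436) and -0.09 ± 0.468 in IMA10 (adjusted p = 0.862). Sohlh2 relative to Sohlh1 stayed in a narrow range, from 0.61 to 1.31 (log2) over the 12 libraries, with group means of 1.15 in Con, 1.17 in Sa, 0.88 in IMC and 0.87 in IMA10. The IMC libraries (0.79 to 1.01) lay below the Con libraries (1.04 to 1.31) on this ratio (exact permutation p = 0.1, adjusted p = 0.2). Without IMA10 replicate 3 neither gene was called in IMA10 against Con, at -0.13 ± 0.385 for Sohlh1 (limma, adjusted p = 0.764) and -0.49 ± 0.439 for Sohlh2 (adjusted p = 0.31).

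The Sa calls of both Sohlh genes depended on the scaling. By median of ratios the differences were 0.65 (limma, adjusted p = 0.148) for Sohlh1 and 0.57 (adjusted p = 0.28) for Sohlh2, and by quantiles 0.58 (adjusted p = 0.15) and 0.65 (adjusted p = 0.173). The Sohlh1 call was also lost without Sa replicate 1 (limma, adjusted p = 0.0618), and the Sohlh2 call without Con replicate 1, 2 or 3 or Sa replicate 1 or 2 (adjusted p = 0.0528 to 0.104).

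Stra8, the retinoic acid target, followed the Sohlh genes at a higher level. Its FPKM was 7.80, 8.70 and 7.52 in Con, 40.77, 26.52 and 23.38 in Sa, and 18.25, 35.73 and 12.06 in IMC. In IMA10 it was 3.68, 13.64 and 16.16. All Sa and IMC libraries were above Con, and IMA10 straddled it. The log2 rise was 1.76 ± 0.50 in Sa (limma, adjusted p = 0.00962) and 1.22 ± 0.50 in IMC (adjusted p = 0.0467), and the IMA10 difference was 0.23 ± 0.50 (adjusted p = 0.685), or -0.12 ± 0.503 without replicate 3 (adjusted p = 0.829). The Sa call was lost by median of ratios (1.01, limma adjusted p = 0.0841). The IMC call was lost by median of ratios (0.56, limma adjusted p = 0.311), by quantiles (0.74, adjusted p = 0.16) and at a pseudocount of 0.1 (adjusted p = 0.0527). No filter on low values (limma, adjusted p = 0.064) and a replicate block (adjusted p = 0.063) also ended the IMC call. It was also lost when any Con or Sa library, IMC replicate 1 or 2, or IMA10 replicate 2 was left out (limma, adjusted p = 0.0515 to 0.171).

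Within libraries Stra8 exceeded Sohlh1 by 1.42, 1.63 and 1.54 (log2) in Con, by 1.96, 2.00 and 2.09 in Sa and by 2.16, 2.29 and 1.77 in IMC. In IMA10 the excess was 1.27, 1.81 and 1.67. Sa and IMC lay wholly above Con, and IMA10 wholly below Sa (exact permutation p = 0.1 each, adjusted p = 0.2, in a design that cannot reach 0.05). At a pseudocount of 0.1 the Sa difference from Con was 0.30 in place of 0.49, still without overlap, and that of IMA10 from Sa was -0.24 in place of -0.44, with overlap.

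Dmrtb1, the regulator of late spermatogonia, was the most abundant of the 7 and the one with the widest range. Its FPKM was 415, 413 and 430.0 in Con, 128, 89.4 and 68.5 in Sa, and 104, 125 and 40.9 in IMC. The IMA10 libraries had 8.72, 34.3 and 479. The Sa and IMC libraries lay far below Con without overlap. IMA10 held both the lowest 2 libraries of the series and the highest. The Sa mean was 22.8% and the IMC mean 21.4% of Con. The mean of IMA10 replicates 1 and 2 was 21.5 FPKM, against 414 FPKM in Con replicates 1 and 2.

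Over all 12 libraries the difference from Con was -2.17 ± 1.10 in Sa (limma, adjusted p = 0.0975) and -2.36 ± 1.10 in IMC (adjusted p = 0.0735), neither called, and -2.94 ± 1.10 in IMA10 (adjusted p = 0.0351). The shared SE includes the spread of the IMA10 libraries. Without IMA10 replicate 3 it was 0.502 for the first 2 comparisons, and Dmrtb1 was lower in Sa (limma, adjusted p = 0.00231), in IMC (adjusted p = 0.00134) and in IMA10 (-4.50 ± 0.561, adjusted p = 2.9e-05). With only the 2 groups compared, the Sa and IMC differences were called (limma, adjusted p = 4.5e-05 and 0.000887) and the IMA10 difference was not (adjusted p = 0.111). By median of ratios Dmrtb1 was called lower in Sa (-2.97, limma adjusted p = 0.0349) and in IMC (-3.07, adjusted p = 0.029). It was also called in both without IMA10 replicate 1 (adjusted p = 0.0332 and 0.023). The IMA10 call was lost without any Con library or IMA10 replicate 1 or 2 (limma, adjusted p = 0.0734 to 0.131), with no filter on low values (adjusted p = 0.0538) and with a replicate block (adjusted p = 0.0566).

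Of 14 genes of pachytene spermatocytes, limma called 1 lower in Sa, 2 in IMC and 8 in IMA10 against Con (19.2%, 23.3% and 23.9% of all genes). Without IMA10 replicate 3 it called 11, 13 and 14 lower (30%, 32.3% and 35.1% of all genes). In both fits 0 were higher, beside 47.7% to 55.5% of all genes. Their summed FPKM was 6314 to 6399 in Con, 1148 to 2199 in Sa, 668 to 1632 in IMC, and 163, 571 and 5911 in the 3 IMA10 libraries. The order of the 3 libraries within Sa, within IMC and within IMA10 was the same for this sum and for Dmrtb1. Relative to Sohlh1, Dmrtb1 stood at 6.99, 7.05 and 7.20 (log2) in Con, 3.59, 3.72 and 3.60 in Sa, 4.60, 4.07 and 3.45 in IMC and 2.33, 3.07 and 6.47 in IMA10. Every busulfan library lay below every Con library (exact permutation p = 0.1, adjusted p = 0.2 for each group). The nearest was IMA10 replicate 3; without it the IMA10 difference was -4.38 in place of -3.12. The part of meiotic cells in the Dmrtb1 values was not tested.

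**Figure D3:**
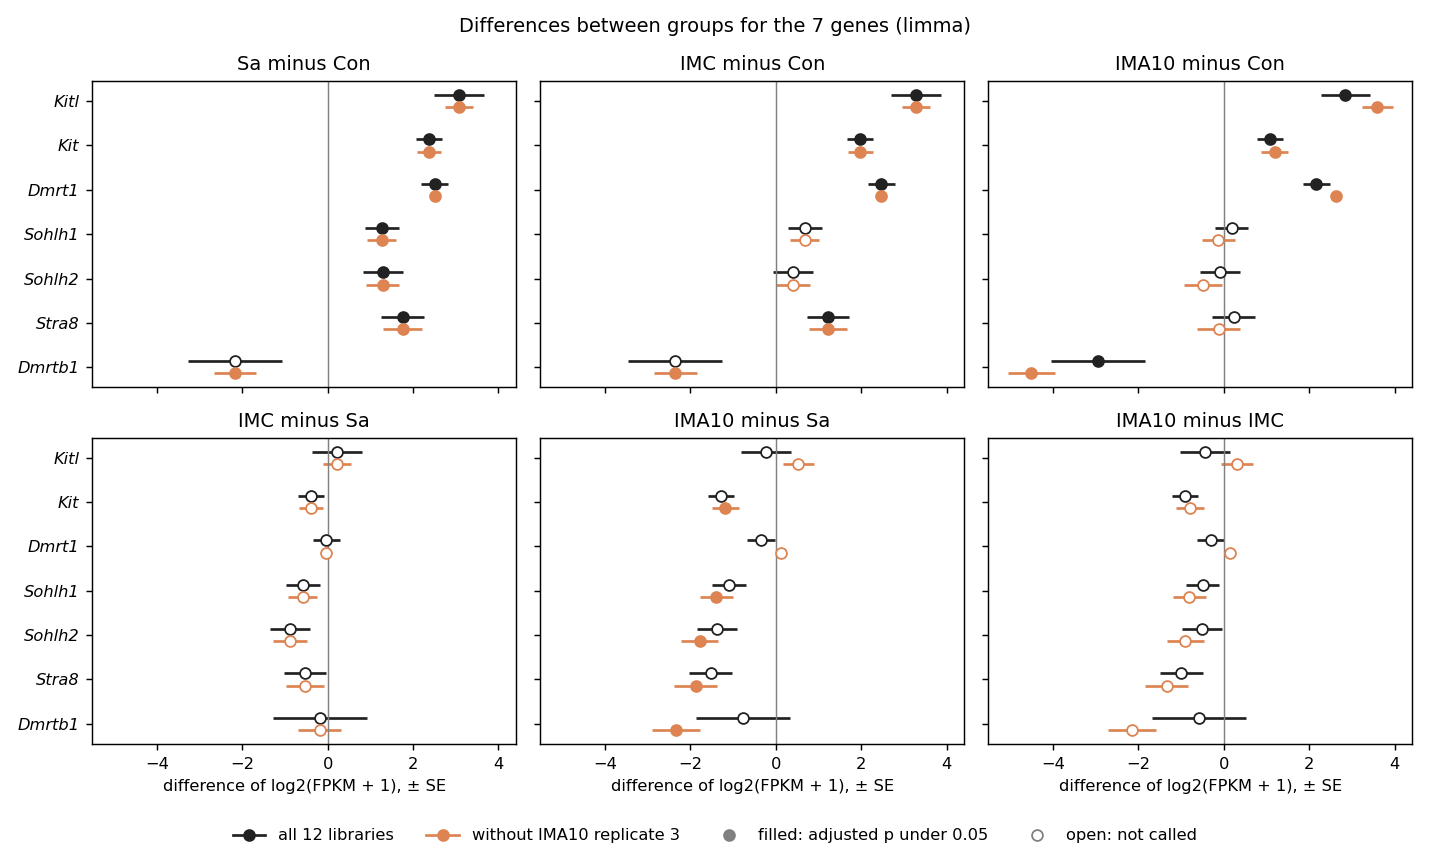
Differences of log2(FPKM + 1) ± SE (limma) for the 7 genes in the 6 comparisons, with all 12 libraries (black) and without IMA10 replicate 3 (orange); filled points have an adjusted p under 0.05. No point is filled in the comparisons between busulfan groups with all libraries, and 5 orange points are filled, all below 0, in IMA10 minus Sa.

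The study also asked whether microbiota transfer, and the treatment of its donors, changed the testis after busulfan. With all 12 libraries no gene was called between busulfan groups: 0% rose and 0% fell of 15472 genes in IMC against Sa, in IMA10 against Sa and in IMA10 against IMC (limma), and 0 of the 7. At an unadjusted p under 0.05, limma gave 134, 928 and 328 genes, among them 0, 4 and 1 of the 7. Kit, Stra8, Sohlh1 and Sohlh2 made up the 4, with log2 differences of IMA10 from Sa of -1.29 ± 0.305, -1.53 ± 0.50, -1.09 ± 0.397 and -1.38 ± 0.468 (limma, adjusted p = 0.628 to 0.701). Kit was the 1 in IMA10 against IMC (-0.90 ± 0.305, limma adjusted p = 1.00).

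Without IMA10 replicate 3, 5 of the 7 were lower in IMA10 than in Sa, and 24.5% of all genes were lower and 7.34% higher. That library was singled out by values from these same data, germ cell genes included, and only replicates 1 and 2 remain in IMA10. The p-values do not account for that choice. Dmrtb1 fell by 2.33 on the log2 scale (SE 0.561, limma adjusted p = 0.0163), Stra8 by 1.88 (SE 0.503, adjusted p = 0.0225), Sohlh2 by 1.78 (SE 0.439, adjusted p = 0.0175), Sohlh1 by 1.39 (SE 0.385, adjusted p = 0.0248) and Kit by 1.18 (SE 0.321, adjusted p = 0.0236). Kitl (0.53 ± 0.367, limma adjusted p = 0.291) and Dmrt1 (0.12 ± 0.104, adjusted p = 0.42) were not called. In these 11 libraries 17 of 20 Sertoli genes were higher in IMA10 than in Sa (median 0.65), 0 of 12 Leydig genes were called, and 13 of 14 pachytene genes were lower (median -2.37).

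In the 11 libraries, IMC against Sa gave 0 of the 7 (0% of all genes in each direction, 1241 genes and 0 of the 7 at an unadjusted limma p under 0.05). IMA10 against IMC also gave 0 of the 7, with 0% of all genes higher and 0.0129% lower (4052 genes at an unadjusted limma p under 0.05). The nearest was Dmrtb1 (-2.15 ± 0.561, limma adjusted p = 0.0735), and Kit, Stra8 and Dmrtb1 were under 0.05 before adjustment. Against Con, the 11 libraries gave 6 higher and 1 lower in Sa (55.5% and 30% of all genes), 4 and 1 in IMC (53.5% and 32.3%) and 3 and 1 in IMA10 (51.5% and 35.1%).

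The receptor and the other germ cell regulators were then set against the ligand within each library. The ratios are of FPKM + 1, so scaling cancels only in part where a gene is near 1 FPKM, as Kitl is in Con. Against Con, Kitl rose beyond the median of all genes by 2.47 in Sa, 2.77 in IMC and 2.44 in IMA10 (log2). A gene that followed that median would thus also lie below Con relative to Kitl. Kit relative to Kitl was 1.21, 0.78 and 0.75 (log2) in Con and 0.26, 0.65 and -0.27 in Sa. It was -1.37, 0.49 and -0.30 in IMC and -1.04, -1.96 and 0.44 in IMA10. Every busulfan library was below every Con library. The differences from Con were -0.70, -1.30 and -1.76 (exact permutation p = 0.1 each, two-sided, Benjamini-Hochberg adjusted p = 0.28 over 42 ratio comparisons, the smallest in that family). Leaving out IMA10 replicate 3 made the IMA10 difference -2.41.

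Stra8 relative to Kitl was 2.18 ± 0.218 (SD, n = 3) in Con, 0.86 ± 0.756 in Sa, 0.11 ± 1.34 in IMC and -0.44 ± 1.95 in IMA10. Sohlh1, Sohlh2 and Dmrtb1 relative to Kitl were also below Con in all 9 busulfan libraries, with differences of -1.80 to -2.67, -1.78 to -2.94 and -5.24 to -5.79 (exact permutation p = 0.1 each). Dmrt1 was the exception: its ratio to Kitl overlapped Con in all 3 groups (differences -0.57, -0.82 and -0.69, exact permutation p = 0.2 each). At a pseudocount of 0.1 it lay below Con without overlap in each group (-1.26, -1.52 and -1.33). No ratio to Kitl separated 1 busulfan group from another: libraries overlapped in all of these comparisons (exact permutation p = 0.3 to 1). The overlap of IMA10 with Sa rested on IMA10 replicate 3 for all but Dmrt1: in replicates 1 and 2 the ratios of Kit (-1.04 and -1.96), Stra8 (-1.92 and -1.17), Sohlh1, Sohlh2 and Dmrtb1 to Kitl lay below those of every Sa library. Without replicate 3 the mean difference between IMA10 and Sa was -1.71 for Kit and -2.40 for Stra8. Kitl itself then differed from Sa by 0.53 (log2, not called) and the median of all genes by -0.13. A gene that followed that median would thus also lie lower relative to Kitl in IMA10 than in Sa. How many of all genes lay below Sa on such a ratio was not counted. At a pseudocount of 0.1 the differences between group means in the ratios to Kitl changed by at most 0.825 (Dmrtb1, IMC against Con).

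**Figure D4:**
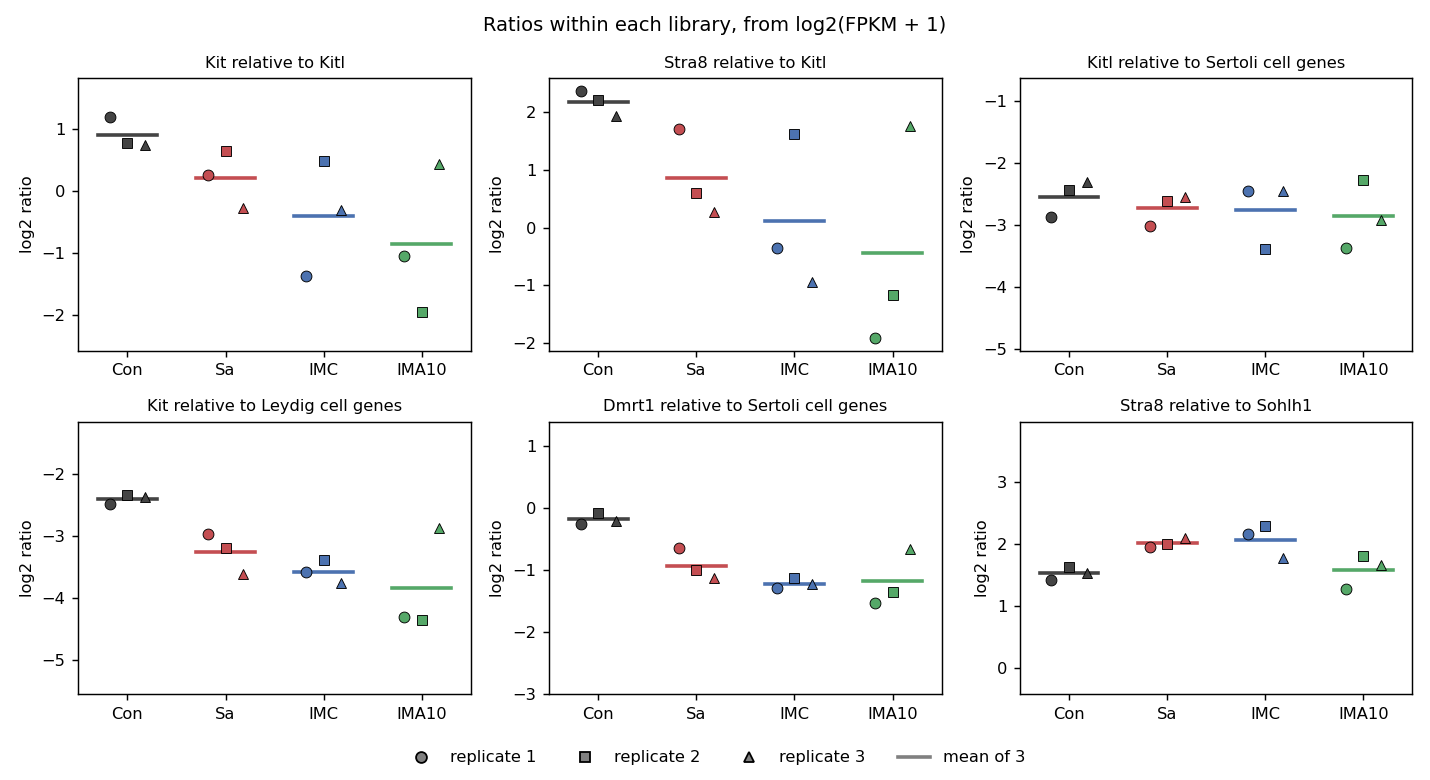
Log2 ratios within each library for 6 pairs; symbols are the 3 replicates, bars are group means, and each axis spans at least 4 log2 units. Kitl relative to Sertoli genes overlaps between all groups, while Kit relative to Leydig genes and Dmrt1 relative to Sertoli genes lie below Con in all 9 busulfan libraries.

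FPKM is per length, so the levels of the 7 genes can be ordered within a group. In Con the order by mean was Dmrtb1, Dmrt1, Stra8, Sohlh2, Kit, Sohlh1 and Kitl, and among neighbours only Dmrt1 and Stra8 overlapped. In Sa Dmrtb1 and Dmrt1 led without overlap (68.5 to 128 against 52.9 to 64.5), and Dmrt1 lay above Stra8. Stra8 overlapped Kit, Kit overlapped Sohlh2 and Sohlh2 overlapped Kitl, while Kitl lay above Sohlh1. In IMC Dmrtb1 overlapped Dmrt1, Dmrt1 lay above Stra8, and all lower neighbours overlapped. In IMA10 all neighbours overlapped, with means from 174 (Dmrtb1) to 2.85 (Sohlh1).

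Patterns over the 12 libraries were compared by the root mean square difference of log2(FPKM + 1), each gene centred on its own mean, among 13608 named genes. This is a description over libraries that share groups and scaling. Sohlh1 and Sohlh2 differed by 0.195, and 2 other genes were closer to Sohlh2, Tex19.1 (0.162) and Mcm5 (0.173). Nearest to Sohlh1 were Spint1 (0.113), Cdca7 (0.127) and Ccna2 (0.13). Stra8 was nearest to Tktl1 (0.167), Prss50 (0.182) and Dmc1 (0.216), and differed from Sohlh1 by 0.297, with 12 genes closer. Seen from Sohlh1, 26 genes were closer than Sohlh2 and 103 closer than Stra8.

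Kit kept apart from these 3: it differed from Sohlh1 by 0.761 and from Dmrt1 by 0.581, and its nearest genes were Sdc1 (0.219), Igfbp2 (0.226) and Impdh1 (0.239). Kitl was nearest to Mme (0.166), Ddx3x (0.182) and Slc26a7 (0.187), and Dmrt1 to Mcmbp (0.0641), Zfp740 (0.074) and Patl1 (0.0857). Dmrtb1 was nearest to Acrbp (0.0531), Ppp3r2 (0.0664) and Slc6a21 (0.0705). The Con mean of Acrbp was 495 FPKM and its means were 111, 100.1 and 190.2 FPKM in Sa, IMC and IMA10, beside 419, 95.4, 89.8 and 174 FPKM for Dmrtb1.

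Transcripts of the genes listed for the Kit pathway were mostly higher after busulfan. The list also holds genes that restrain the signal, such as Cbl, so counts over it do not measure signalling. Of 35 listed genes of the pathway other than Kit and Kitl, 34 were tested (all but Dok1). In Sa against Con 28 rose and 2 fell (limma), where 52% of all genes rose and 19.2% fell, and the median log2 difference was 1.41 against 0.60 for all genes tested. In IMC against Con 28 rose and 3 fell (50.8% and 23.3% of all genes), with a median of 1.40 against 0.52. In IMA10 against Con 27 rose and 2 fell (47.7% and 23.9% of all genes), with a median of 1.06 against 0.41. The IMA10 counts without IMA10 replicate 3 were 27 and 4 (51.5% and 35.1% of all genes), with a median of 1.45. By median of ratios 23 were higher and 5 lower in Sa (median 0.97, against -0.02 for all genes). Of all 15472 genes, 5831 were higher and 6060 lower at that scaling. The largest rises in Sa were those of Fyn, a Src family kinase (3.26 ± 0.48, limma adjusted p = 0.000372), Stat3, a transcription factor activated by kinases (3.05 ± 0.438, adjusted p = 0.000362), and Ptpn11, the phosphatase SHP2 (2.84 ± 0.434, adjusted p = 0.000399). The 2 that fell were Pik3cd, a PI3-kinase catalytic subunit (-2.38 ± 0.765, limma adjusted p = 0.0177), and Cbl, a ubiquitin ligase that downregulates receptors (-1.53 ± 0.566, adjusted p = 0.0323). The number lower in Sa was 1 with a replicate block or without any Con library or Sa replicate 2, and 0 without Sa replicate 3. It was 4 without IMA10 replicate 3 and with only the 2 groups compared. The number lower over all 15472 genes moved too. It was 2481 with a replicate block, 2195 to 2251 without a Con library and 2217 without Sa replicate 2. Without Sa replicate 3 it was 2018, without IMA10 replicate 3 4648, and in the fit of 2 groups 4765. Mapk3, which encodes ERK1 and had the highest mean level, was 102 ± 4.11 FPKM (SD, n = 3) in Con and 169 ± 14.3 in Sa. Most of these genes are expressed in many cell types.

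Of 30 listed genes of spermatogonial differentiation other than the 7, 25 were tested. In Sa against Con 13 rose and 1 fell (limma), the rises being the same share as over all genes (52%; 19.2% fell), with a median of 1.04 against 0.60. In IMC 8 rose and 1 fell (50.8% and 23.3% of all genes), with a median of 0.55 against 0.52. In IMA10 7 rose and 2 fell (47.7% and 23.9% of all genes), with a median of 0.03 against 0.41. Leaving out IMA10 replicate 3 gave 7 higher and 8 lower in IMA10 (51.5% and 35.1% of all genes), and a median of -0.24. By median of ratios, with all libraries, 5 were higher and 7 lower, and the median was -0.36. Of all 15472 genes, 5714 were higher and 5736 lower in IMA10 at that scaling, with a median of -0.02. By median of ratios the Sa count was 9 higher and 4 lower (median 0.30, against -0.02), beside 5831 higher and 6060 lower of all 15472 genes. The largest rises in Sa were those of Ccnd2, a D-type cyclin (1.92 ± 0.37, limma adjusted p = 0.00112), Dnmt3a, a DNA methyltransferase (1.82 ± 0.28, adjusted p = 0.000401), and Rb1, a cell cycle inhibitor (1.60 ± 0.356, adjusted p = 0.00256). Which cell types carried these rises was not tested. Rec8, a meiotic cohesin subunit, fell (-1.87 ± 0.618, limma adjusted p = 0.0203). No gene of the list was called lower in Sa without Con replicate 1, Sa replicate 2 or Sa replicate 3, while 2 were without IMA10 replicate 1, 4 without IMA10 replicate 3 and 5 with only the 2 groups compared. Over all 15472 genes the numbers lower in these settings, in turn, were 2251, 2217, 2018, 3694, 4648 and 4765. Ddx4, a germ cell RNA helicase with the highest mean level of the list, was 148 ± 13.6 FPKM (SD, n = 3) in Con and 54.2 ± 16.6 in Sa (-1.48 ± 0.921, limma adjusted p = 0.165).

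Without IMA10 replicate 3, 17 of these 25 genes were lower in IMA10 than in Sa and 0 were higher (limma, median -1.20, against -0.13 for all genes), where 24.5% of all genes were lower and 7.34% higher. The largest falls were those of Ddx4 (-2.02 ± 0.58, limma adjusted p = 0.0282), Uhrf1, which maintains DNA methylation in dividing cells (-2.01 ± 0.406, adjusted p = 0.0136), and Taf7l, a germ cell subunit of TFIID (-1.89 ± 0.483, adjusted p = 0.0194). Falls were not particular to this list. In the same fit 13 of 14 pachytene genes (median -2.37), 13 of 13 round spermatid genes (-1.73) and 12 of 12 elongating spermatid genes (-3.07) were lower. With replicate 3 included, 0 of 25 were called and 10 had an unadjusted limma p under 0.05. In the same 11 libraries the Kit pathway list gave 4 higher and 3 lower (median 0.05).

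**Figure D5:**
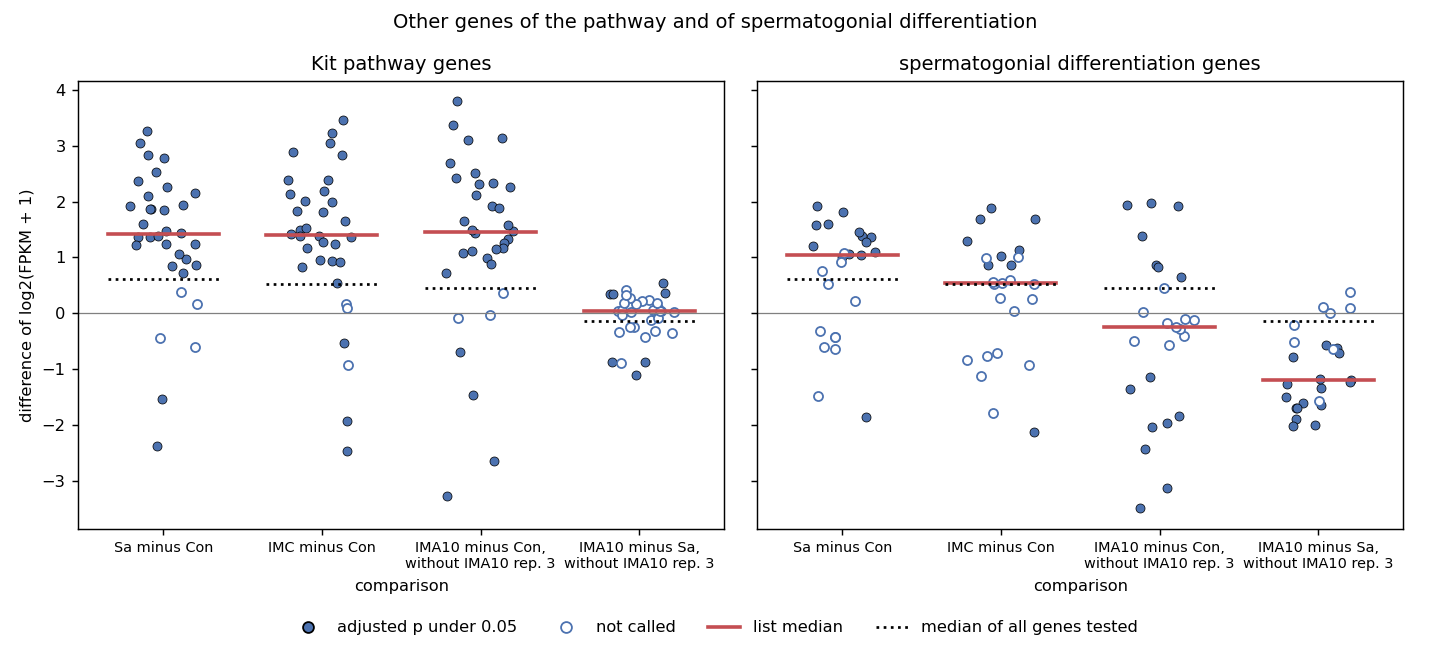
Differences of log2(FPKM + 1) for each tested gene of the Kit pathway (34) and of spermatogonial differentiation (25), without the 7 genes, in 4 comparisons; filled points passed limma at an adjusted p under 0.05, red bars are list medians and dotted lines the medians of all genes tested. The differentiation list lies mostly below 0 in IMA10 minus Sa without IMA10 replicate 3 (median -1.20), where the pathway list is centred near 0 (median 0.05).

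Against Con the choice of scaling shifted all genes. The median log2 difference of all genes was 0.60 in Sa, 0.52 in IMC and 0.41 in IMA10 as deposited, and moved by -0.63, -0.56 and -0.43 with median-of-ratios scaling. The Sa calls then split into 5831 higher and 6060 lower genes, from 8052 and 2963. Relative to the median of all genes, under the deposited, median-of-ratios and quantile scalings in turn, Kitl was higher in Sa by 2.47, 2.54 and 2.37, Dmrt1 by 1.90, 1.77 and 2.00, and Kit by 1.77, 1.73 and 1.60. On the same measure Stra8 was higher by 1.15, 1.03 and 1.09, while Sohlh1 (0.66, 0.67 and 0.39) and Sohlh2 (0.68, 0.59 and 0.46) lay nearer the median. In IMA10 Stra8, Sohlh1 and Sohlh2 lay below the median of all genes under each of the 3 scalings, at -0.18 to -0.66.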

How the data were processed

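RNA of 12 mouse testis libraries in 4 groups of 3 was analysed from 1 table in which the authors deposited FPKM values, per the file headers. The aligner, the annotation and the genome build were not given in the sources used here. Of 22221 rows, 20288 had a numeric Gene ID and 20141 matched a symbol. FPKM sums were 569055 to 576093 in Con and 476127 to 519355 in the busulfan libraries. Depth is unknown: among low values at most 4.25% of genes shared 1 ratio between 2 libraries, so whole reads could not be recovered.

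Genes with at least 1 FPKM in 3 or more libraries were kept, and log2(FPKM + 1) was fitted with 1 mean per group over all 12 libraries in limma 3.58.1 (R 4.3.3, trended variance), with Benjamini-Hochberg adjustment over 15472 genes at 0.05. Fold changes on this scale understate changes of low genes. The procedure was also run on simulated data that held no shift over all genes and no library unlike its group. That run therefore does not show how it behaves under either. Ratios within libraries were compared by exact permutation, two-sided, over 42 comparisons plus 30 (Kit to Leydig genes, Dmrt1 to Sertoli genes, and Stra8, Sohlh2 and Dmrtb1 to Sohlh1) that were added after seeing the data. The members and lists were chosen with earlier results of these data known. Beside the 7 genes, those named were the largest rises and falls among called genes of a list, its most abundant gene, and the 3 genes nearest in pattern. Alternatives were median-of-ratios and quantile scaling, pseudocount 0.1, no filter or 5 FPKM, fits of 2 groups, a replicate block and leaving out each library.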

Additional observations from a re-analysis of the deposited data

How the results depend on the processing

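The rises of Kitl and Dmrt1 in all 3 busulfan groups against Con, and of Kit in Sa and IMC, kept their direction and stayed past the threshold under all alternatives, each library left out included. With median-of-ratios scaling the number of members higher in Sa against Con was 3, and 1 was lower in Sa and in IMC. Of all 15472 genes, 5831 were higher in Sa, and 6060 and 6276 were lower in Sa and IMC. Fits of only the 2 groups compared also gave 1 member lower in Sa and in IMC, and 0 in IMA10 (4765, 5046 and 1834 of all 15472 genes). In IMA10 against Con 0 members were lower with no filter on low values (3998 of all 22221 genes). Leaving out 1 library gave 0 to 1 members lower in each of Sa, IMC and IMA10 against Con. It gave 0 to 5 in IMA10 against Sa, the 5 without IMA10 replicate 3. The ranges over all genes are given below.

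Replicate numbers are shared between groups by label alone: deviations of same-numbered libraries correlated between -0.765 and 0.546, over 0.1 in 5 of 18 pairs, so the numbers were not taken to pair libraries. The replicate block gave 6 members higher in Sa, 3 in IMC and 3 in IMA10 against Con, and 0 lower in IMA10 against Con. Of all 15472 genes it gave 7820, 7635 and 7017 higher, and 2972 lower in IMA10.

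Over all genes, the number lower than Con with median-of-ratios scaling was 6060 in Sa, 6276 in IMC and 5736 in IMA10, and 4514 in Sa with quantile normalization. In fits of 2 groups it was 4765 in Sa and 1834 in IMA10. Leaving out 1 library gave 2018 to 4648 lower in Sa (highest without IMA10 replicate 3), 2246 to 4992 in IMC (lowest without IMC replicate 3) and 2177 to 5438 in IMA10 (2209 without IMA10 replicate 1, 2177 without replicate 2). In IMA10 against Sa it gave 0 to 1136 higher and 0 to 3795 lower, and in IMA10 against IMC 0 to 2 lower. At a pseudocount of 0.1 and with no filter, 1 gene was higher in IMC and 1 in IMA10 against Sa, and with no filter 1 was lower in IMA10 against Sa.

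At a pseudocount of 0.1 the differences between Sa and Con were -1.17 for Kit relative to Kitl, -1.26 for Dmrt1 relative to Kitl, -6.05 for Dmrtb1 relative to Kitl and 0.31 for Kitl relative to Sertoli cell genes, and that between IMC and Con was -1.52 for Dmrt1 relative to Kitl.

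Several differences that were not called changed sign. With median-of-ratios scaling and quantile normalization they were -0.28 and -0.10 for Stra8 in IMA10 against Con, -0.22 and -0.10 for Sohlh1 in IMA10 against Con, and -0.22 and -0.21 for Sohlh2 in IMC against Con. Kitl in IMA10 against Sa was 0.028 with quantile normalization, and Dmrt1 in IMC against Sa was 0.044 with median-of-ratios scaling. Leaving out 1 library gave -0.83 to 0.53 for Kitl in IMA10 against Sa and -1.04 to 0.31 against IMC. It gave -0.12 to 0.82 for Stra8, -0.13 to 0.61 for Sohlh1 and -0.49 to 0.47 for Sohlh2 in IMA10 against Con, and -0.90 to 0.061 for Sohlh2 in IMA10 against IMC. For Dmrt1 it gave -0.089 to 0.051 in IMC against Sa, and -0.58 to 0.12 and -0.54 to 0.15 in IMA10 against Sa and IMC. For Dmrtb1 it gave -0.50 to 0.30 in IMC against Sa, and -2.33 to 0.48 and -2.15 to 0.67 in IMA10 against Sa and IMC. The causes were not tested.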
